A study of Mus musculus with 21 samples.

Results

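The BCL2 family decides whether a cell releases cytochrome c from its mitochondria and dies by apoptosis. 10 members of the family were chosen by their gene symbols, by a rule that uses no measured value, out of the 54123 genes in the tables. Earlier results of these data were known when the family was chosen. They were the 3 copies of the gene for A1 (Bcl2a1a, Bcl2a1b and Bcl2a1d), Mcl1, Bcl2l1 (the gene for BCL-XL), Bcl2, the effector Bak1, and the BH3-only genes Bcl2l11 (the gene for BIM), Bid and Bbc3 (the gene for PUMA). RNA-Seq libraries were made from cells labelled as neutrophils (PMNs) of the blood and as renal tubular epithelial cells (TECs) of the kidney, collected 24 hours after surgery. The PMN libraries also held macrophage and kidney tubule RNA, so they were not pure neutrophils, and blood as their source rests on the labels alone. All mice were wildtype, and the study's methods give male C57BL/6 mice of 8 to 12 weeks. Each mouse had either renal ischemia-reperfusion injury (IRI), made by clamping the renal pedicles for a time, or a sham operation without clamps. Before surgery each had either remote ischemic preconditioning (RIPC), in which a cuff on the hind limb was inflated repeatedly above arterial pressure, or a control procedure, in which the cuff pressure left the limb perfused. The 8 groups were PMNs and TECs from each combination of surgery and cuff. They held 3 libraries each, except PMNs after sham surgery with the control cuff, PMNs after IRI with the control cuff and TECs after IRI with the control cuff, which held 2 each. TECs were collected with magnetic beads against prominin-1, a protein of proximal tubule cells. The methods call the libraries of a group biological replicates, but the labels do not tie a library to a mouse, so p-values measure the spread between libraries only.

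Anti-apoptotic members hold the effectors BAK and BAX in check at the outer membrane of the mitochondrion. BH3-only members such as BIM, BID and PUMA carry the death signal: they occupy the anti-apoptotic proteins or activate the effectors directly. A neutrophil in the blood is short lived and depends on MCL1, a protein of rapid turnover, and on A1, whose gene is an inflammatory target of NF-κB. Cytokines such as G-CSF and GM-CSF prolong its life. Tubular epithelial cells live far longer, and express BCL-XL and MCL1.

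The copies of Bcl2a1 are nearly the same sequence, and this decides how their values can be read. The first 300 bases of the coding sequence of each copy (5′ to 3′, GRCm38, Gencode M21 transcripts) are shown so that the copies can be compared base by base, with capitals at the positions where the copies differ. The stretches lie at chr9:88957051-88957350 on the plus strand for Bcl2a1a, chr9:89199360-89199659 on the plus strand for Bcl2a1b and chr9:88731420-88731719 on the minus strand for Bcl2a1d.
Bcl2a1a: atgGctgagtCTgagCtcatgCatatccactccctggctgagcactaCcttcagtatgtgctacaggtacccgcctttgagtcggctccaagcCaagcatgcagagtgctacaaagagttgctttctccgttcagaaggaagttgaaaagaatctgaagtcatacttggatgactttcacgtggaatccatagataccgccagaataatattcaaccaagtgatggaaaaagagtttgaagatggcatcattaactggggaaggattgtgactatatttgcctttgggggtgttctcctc
Bcl2a1b: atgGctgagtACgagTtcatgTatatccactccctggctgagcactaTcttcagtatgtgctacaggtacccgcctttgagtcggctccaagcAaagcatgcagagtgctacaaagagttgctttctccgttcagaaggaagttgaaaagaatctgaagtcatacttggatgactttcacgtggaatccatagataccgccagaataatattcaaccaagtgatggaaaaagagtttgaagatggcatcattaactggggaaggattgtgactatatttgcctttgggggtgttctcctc
Bcl2a1d: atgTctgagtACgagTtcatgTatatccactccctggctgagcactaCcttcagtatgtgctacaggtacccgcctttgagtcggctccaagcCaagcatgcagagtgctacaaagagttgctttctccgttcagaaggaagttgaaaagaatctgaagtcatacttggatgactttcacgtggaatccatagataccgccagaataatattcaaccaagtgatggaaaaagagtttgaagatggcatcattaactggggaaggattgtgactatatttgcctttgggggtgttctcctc

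Over the 516 coding bases, the copies differed at 12 positions in all, 7 of them in the stretch shown. Bcl2a1a and Bcl2a1b differed at 11 positions (97.9% identity), Bcl2a1a and Bcl2a1d at 7 (98.6%), and Bcl2a1b and Bcl2a1d at 6 (98.8%). The reads were 50 bases long. Of the 50-base windows of each transcript, 69.0% in Bcl2a1a, 57.6% in Bcl2a1b and 79.5% in Bcl2a1d stood word for word in another copy. The deposited values split such reads among the copies by estimation, so the level of a single copy is uncertain, and the 3 copies were also summed. A single transcript of another gene, Gm29094-201, shared 353 of those windows, and that gene had at most 150 reads in any PMN library. The fourth copy, Bcl2a1c, had at most 2 reads in any library.

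PMN libraries held 20881334 to 30507235 reads and TEC libraries 21479605 to 51624602 reads. Levels are given as reads, as CPM (counts per 1000000 reads, scaled by edgeR's TMM factors) or, between genes, as TPM (transcripts per 1000000 transcripts, which takes transcript length into account). 3 reads, taken as the limit of detection, were 0.113 to 0.145 CPM in a PMN library and 0.0830 to 0.143 CPM in a TEC library. The PMN libraries carried RNA of other cells. The summed CPM of 11 neutrophil markers was 5753 to 28498 after sham surgery (median 9155, n = 5) and 12265 to 32075 after IRI (median 21048, n = 5), and Ly6g, the defining surface marker, was present in all 10 libraries. The sum of 10 macrophage and monocyte markers was 2821 to 9412 after sham surgery and 1167 to 2259 after IRI. These markers did not move alike. C1qa was at 867 to 2370 CPM and 66.2 to 371 CPM. The log2 fold change of IRI over sham surgery was positive for Ccr2 (0.51) and Ly6c2 (0.81) and negative for the others, with Cd68 at -0.10 and Csf1r at -0.25. The sum of 9 proximal tubule markers was 1197 to 10437 after sham surgery and 501 to 848 after IRI. The sum of 6 distal tubule and collecting duct markers was 122 to 5045 and 43.2 to 570. The macrophage and proximal tubule sums were thus higher in every sham library than in any IRI library. No single marker of these lists passed edgeR's test of IRI against sham surgery in PMNs. Unadjusted p by edgeR was under 0.05 for 5 of the neutrophil, 5 of the macrophage, 8 of the proximal and 2 of the distal markers, against 2958 of 25002 genes. DESeq2's Wald test called 5, 4, 5 and 2 of these markers, against 1955 of 25002 genes. The lymphocyte marker Cd3e was at 0 in 4 of 5 sham and 3 of 5 IRI libraries, and the sums of the lymphocyte (8.62 to 89.4 and 6.89 to 32.3 CPM), endothelial (5.02 to 201 and 9.35 to 61.1 CPM) and erythrocyte markers (89.5 to 224 and 11.8 to 351 CPM) overlapped between sham and IRI libraries. The replicate 1 library of the sham group with the control cuff had the highest neutrophil sum of the sham libraries (28498), and replicate 2 of that group had the highest proximal and distal tubule sums. In bulk samples, fewer cells of a type and less RNA per cell cannot be told apart. The part of these other cells in the differences between PMN groups was not tested.

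**Figure D1:**
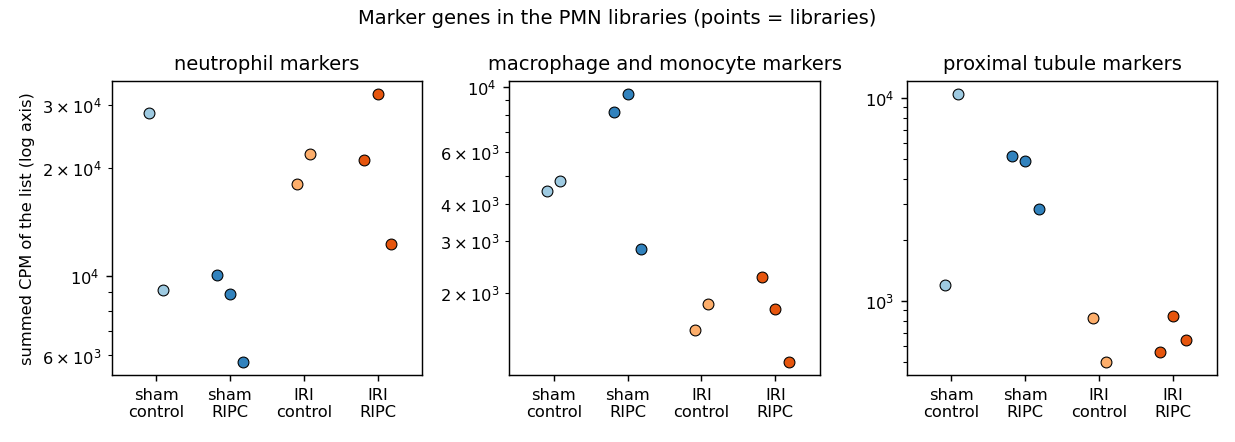
Summed CPM of the neutrophil, macrophage and monocyte, and proximal tubule marker lists in the 10 PMN libraries (log axis), by group, with a point for each library. The neutrophil sums of the sham group (5753 to 28498) and the IRI group (12265 to 32075) overlapped, whereas the macrophage and proximal tubule sums were higher in every sham library than in any IRI library.

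After IRI, PMNs held more Mcl1 RNA than after sham surgery, by a ratio of 4.05 between the means, and it was the only one of the 10 members to pass the test. Bcl2l11, the gene for the death-inducing partner of MCL1, was higher in all 5 IRI libraries than in any sham library, by an even wider margin, but did not pass the test. The summed Bcl2a1 copies, the most abundant member in PMNs, and Bcl2l1 did not pass the test either. Across all genes, 104 of 25002 (0.416%) passed at an adjusted p under 0.05 in this comparison, which averaged over both cuffs (edgeR quasi-likelihood test, Benjamini-Hochberg adjustment). The background for groups that do not overlap was 858 of 25002 genes (3.43%) with all IRI libraries above all sham libraries. 2 of the 10 members, Mcl1 and Bcl2l11, did so.

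Mcl1 (chr3:95658788-95663176, plus strand) encodes the short-lived guardian on which neutrophil survival depends. After sham surgery, PMNs held 228 and 111 CPM of Mcl1 with the control cuff and 95.5, 136 and 134 CPM with RIPC. After IRI they held 452 and 465 CPM with the control cuff and 556, 764 and 613 CPM with RIPC. All 5 IRI libraries were above all 5 sham libraries. The mean was 570 ± 127 CPM after IRI and 141 ± 51.6 CPM after sham surgery (SD, n = 5 each), a ratio of 4.05. The fitted log2 fold change was 1.92 (SE 0.29), with an adjusted p of 0.0359 by the edgeR quasi-likelihood test. In one fit to all 8 groups, which included the TECs, the log2 fold change was 1.93 and the adjusted p 0.105, so the call was lost.

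The sham library with the most Mcl1 (228 CPM) was the one whose neutrophil marker sum was the highest of its group and above 4 of the 5 IRI libraries. Its Mcl1 level lay below every IRI library. Its macrophage and monocyte marker sum (4434 CPM) was above that of every IRI library (at most 2259 CPM). The part of the cell mixture in the Mcl1 level was not tested. Without that library, the log2 fold change was 2.24 and the adjusted p 0.0148. The call was lost when any one of 8 other libraries was left out, with adjusted p between 0.0534 and 0.135, while the log2 fold change stayed between 1.77 and 2.24 in all 10 such fits.

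The rise in Mcl1 was examined separately with each cuff. With RIPC the log2 fold change was 2.40 (SE 0.37), adjusted p = 0.0461, in a comparison in which 62 genes (0.248%) passed. Without RIPC, with 2 libraries a group, it was 1.44 (SE 0.44), adjusted p = 0.736, where no gene passed (0%). The difference between these effects did not pass the test (interaction 0.96, SE 0.56, adjusted p = 0.774 by edgeR), so the effect of IRI on Mcl1 is not shown to depend on RIPC.

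Bcl2l1 (chr2:152780668-152831728, minus strand) encodes BCL-XL, which binds the effectors and several BH3-only proteins. Its level in PMNs after sham surgery was 171 and 137 CPM with the control cuff and 252, 212 and 111 CPM with RIPC. After IRI it was 241 and 407 CPM with the control cuff and 265, 352 and 262 CPM with RIPC. The groups overlapped through a single sham library. The log2 fold change was 0.85 (SE 0.33), with an adjusted p of 0.402 by edgeR, so Bcl2l1 did not pass.

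The summed Bcl2a1 copies, whose near identity is seen in the sequences above, were abundant in PMNs in both states. After sham surgery the sum was 201 and 225 CPM with the control cuff and 319, 242 and 94.9 CPM with RIPC. After IRI it was 97.3 and 173 CPM with the control cuff and 174, 243 and 207 CPM with RIPC. The ranges of sham and IRI libraries overlapped. The log2 fold change of the sum was -0.36 (SE 0.38), adjusted p = 0.740 by edgeR.

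Of the single copies, Bcl2a1b held the largest share of the reads in 10 of 10 PMN libraries. Its range was 66.3 to 255 CPM after sham surgery and 62.7 to 160 CPM after IRI. Bcl2a1a ranged from 17.8 to 82.1 CPM and from 17.2 to 60.5 CPM, and Bcl2a1d from 10.8 to 91.5 CPM and from 16.8 to 42.3 CPM. The log2 fold changes were -0.08 (SE 0.44) for Bcl2a1b, -0.82 (SE 0.62) for Bcl2a1a and -0.75 (SE 0.61) for Bcl2a1d, and none passed the test.

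Bcl2, the founding anti-apoptotic member, was scarce in PMNs. It had 232 and 1 reads after sham surgery with the control cuff, 15, 258 and 29 with RIPC, 1 and 282 after IRI with the control cuff, and 0, 2 and 12 after IRI with RIPC. These reads were scattered over libraries of both states, and the groups overlapped.

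**Figure D2:**
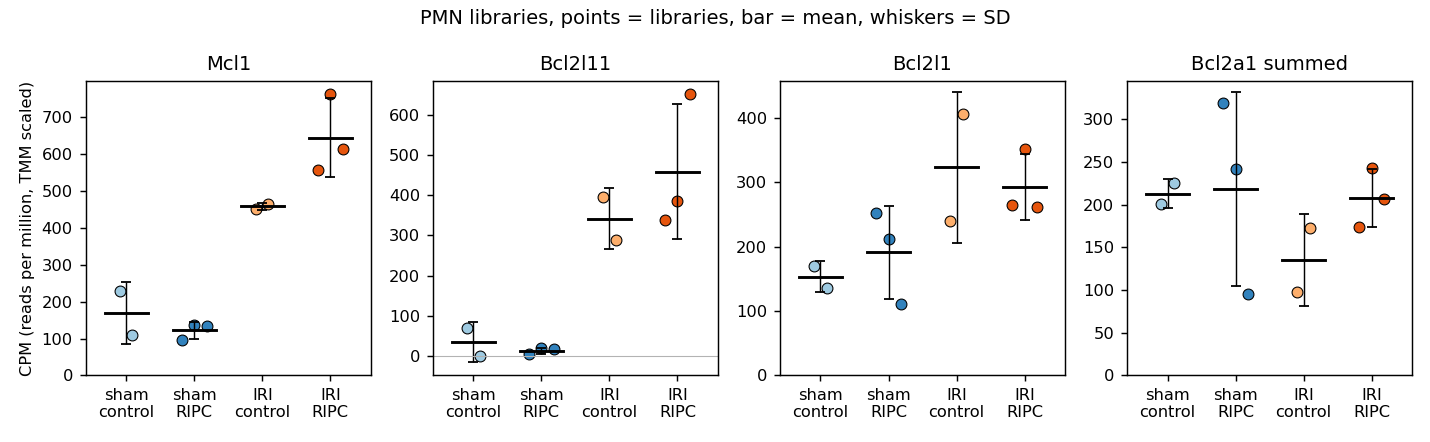
CPM of the main members in the 10 PMN libraries by group, with a point for each library, a bar at the group mean and whiskers of 1 SD. Mcl1 reached 452 CPM or more in every IRI library and at most 228 CPM in any sham library, and Bcl2l11 288 CPM or more against at most 70.3 CPM, whereas the summed Bcl2a1 copies overlapped between the states.

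Bcl2l11 (chr2:128126038-128162547, plus strand) encodes BIM, the BH3-only protein that binds all the anti-apoptotic members and drives the death of neutrophils deprived of cytokines. PMNs held 70.3 and 0 CPM of Bcl2l11 after sham surgery with the control cuff and 4.81, 19.4 and 16.7 CPM with RIPC. After IRI they held 396 and 288 CPM with the control cuff and 339, 386 and 651 CPM with RIPC. The 5 IRI libraries had 7653 to 16906 reads and the sham libraries 0 to 1781, with no overlap. The mean was 412 ± 140 CPM after IRI and 22.2 ± 28.0 CPM after sham surgery (SD, n = 5 each), a ratio of 18.5. The fitted log2 fold change was 4.18 (SE 1.40), with an unadjusted p of 0.0151 and an adjusted p of 0.353 by edgeR, so this difference did not pass the test across all genes.

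The sham libraries differed strongly among themselves in Bcl2l11, from 0 to 70.3 CPM. Both ends of that range came from the 2 libraries of the sham group with the control cuff, the same libraries that had the highest neutrophil sum and the highest tubule sums of the sham group. Without replicate 1 of that group, which had the 1781 reads, the fitted log2 fold change was 10.54 and the adjusted p 0.00414. That fold depends on the prior count, since the remaining control library had no read. Without replicate 2, the library with no read, the log2 fold change was 3.74 and the adjusted p 0.0556. In both fits the lone library left in its group was assumed to vary like the other groups.

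Of the transcripts of Bcl2l11, that of BimEL was assigned the most reads in PMNs after IRI. Bcl2l11-205, with a coding sequence of 196 codons, took 4321 to 7876 reads in the 5 IRI libraries, which was 46.6% to 70.4% of the reads of the gene. Bcl2l11-203, with 140 codons (BimL), took 916 to 6102 reads, or 9.76% to 36.1%. The transcripts of the shorter forms, Bcl2l11-201 and Bcl2l11-204 with 110 codons (BimS) and Bcl2l11-202 with 91 codons, took most of the remainder. Reads favor Bcl2l11-205, which at 5036 bases is the longest transcript. By TPM it led only in the IRI libraries with the control cuff. With RIPC, Bcl2l11-204 was above it in replicates 1 (20.2 against 17.4) and 2 (27.7 against 27.1), and Bcl2l11-203 in replicate 3 (37.2 against 33.4). BimEL is therefore not shown to be the main form. In the sham PMN libraries Bcl2l11-205 had 0 to 243 reads. In TECs it had no read in 10 of 11 libraries and 18 in the remaining one.

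BimEL differs from BimL by a stretch of 168 coding bases, or 56 codons. The stretch lies within an exon of BimEL, and the shorter form splices it out. The stretch is shown in capitals because it is what tells the protein forms apart, with 15 bases of flanking coding sequence on each side in lower case. It lies at chr2:128128757-128128924 on the plus strand (GRCm38, from Gencode M21 transcript Bcl2l11-205).
Bcl2l11-205: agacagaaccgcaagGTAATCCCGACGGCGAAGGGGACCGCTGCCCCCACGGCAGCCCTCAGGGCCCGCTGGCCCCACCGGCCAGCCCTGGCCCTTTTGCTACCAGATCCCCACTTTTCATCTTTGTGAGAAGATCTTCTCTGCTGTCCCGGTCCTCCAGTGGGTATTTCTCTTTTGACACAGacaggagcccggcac

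The annotated last exon of Bcl2l11-205 also runs 1319 bases further than that of Bcl2l11-203. A read in that extension is assigned to Bcl2l11-205 whether or not its molecule held the stretch in capitals, and the deposited files do not say where in a transcript its reads fell. Use of the longer end and retention of the stretch can therefore not be told apart here.

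**Figure D3:**
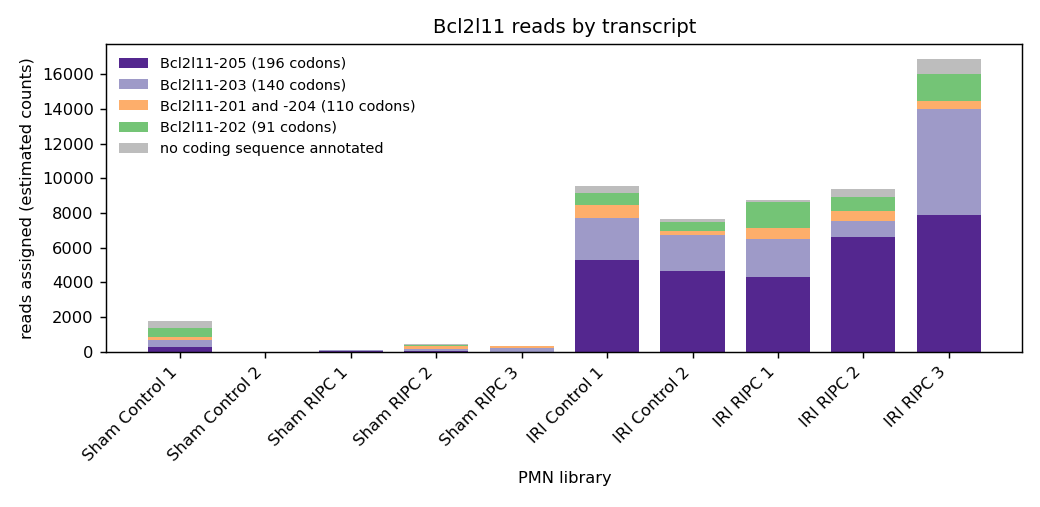
Reads (estimated counts) assigned to the transcripts of Bcl2l11 in each PMN library, stacked by transcript. The 5 IRI libraries had 7653 to 16906 reads in all, of which 4321 to 7876 were assigned to Bcl2l11-205, while the sham libraries had at most 1781 reads.

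The other BH3-only genes showed no such separation in PMNs. Bid (chr6:120891930-120916853, minus strand) encodes the link between death receptors and mitochondria. It had 20.6 and 6.74 CPM after sham surgery with the control cuff, 189, 28.0 and 4.55 CPM with RIPC, 8.09 and 37.9 CPM after IRI with the control cuff, and 13.9, 4.82 and 38.9 CPM after IRI with RIPC. A single sham library stood at 189 CPM, and the rest of both states lay between 4.55 and 38.9 CPM. The log2 fold change of Bid was -0.60 (SE 1.04, adjusted p = 0.888 by edgeR).

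Bbc3 encodes PUMA, a BH3-only target of p53. It had 187 and 0 reads after sham surgery with the control cuff and 0, 432 and 72 with RIPC, against 0 and 0 after IRI with the control cuff and 172, 10 and 6 with RIPC. 4 of the 10 libraries were at 0, on both sides of the comparison. Bak1 encodes the effector BAK, and had at most 60 reads in any PMN library. It was at 0 in 2 sham and 2 IRI libraries. Neither Bbc3 nor Bak1 passed the test.

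By their median, the 10 members lay at a log2 fold change of -0.50 in PMNs after IRI against -0.01 over all genes tested. 3 of the 10 had a positive value, those of Mcl1, Bcl2l11 and Bcl2l1, and these same 3 had an unadjusted p under 0.05, against 11.8% of all genes. The median mixes the abundant members with Bcl2, Bak1 and Bbc3, whose reads were few.

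**Figure D4:**
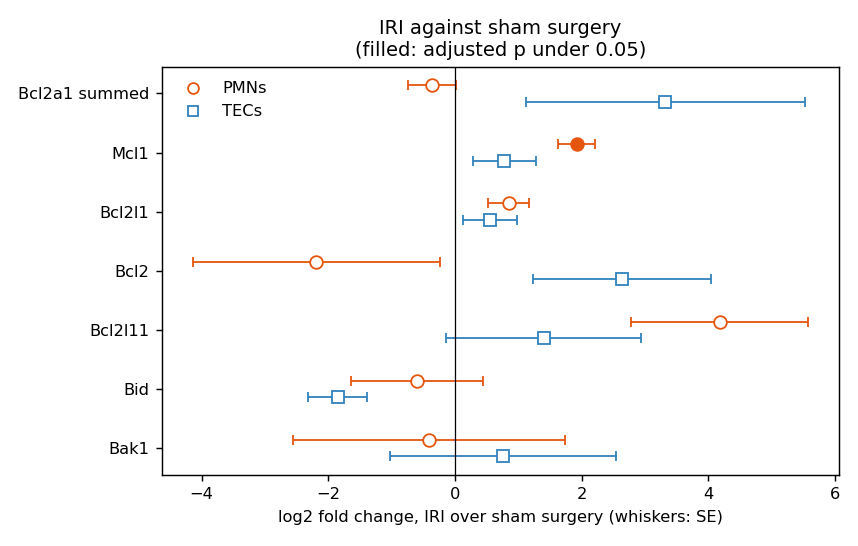
Log2 fold change of IRI over sham surgery for the members, averaged over both cuffs, in PMNs and TECs with whiskers of 1 SE and filled symbols for an adjusted p under 0.05. Mcl1 in PMNs (1.92) is the only filled symbol, Bcl2l11 in PMNs stands at 4.18 with a wide SE, and Bid in TECs stands at -1.85.

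In TECs, Bid was lower in every IRI library than in any sham library, while Mcl1 and Bcl2l1 overlapped. 9 of the 10 members had enough reads to be tested, Bcl2a1a being left out, and none passed, against 363 of 25880 genes (1.4%). Of these members, 1 had an unadjusted p under 0.05 by edgeR, against 3888 of 25880 genes. DESeq2's Wald test called 1, against 2233 of 25880 genes, and both times it was Bid. The background for groups that do not overlap was 816 of 25880 genes (3.15%) with all IRI libraries below all sham libraries, and 1 of 9 members, Bid, was among them. The median log2 fold change over all genes in this comparison was 0.15, or 0.28 with DESeq2's size factors.

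Bid in TECs after sham surgery was 98.6, 114 and 99.5 CPM with the control cuff and 102, 155 and 105 CPM with RIPC. After IRI it was 32.4 and 32.9 CPM with the control cuff and 28.6, 48.1 and 12.0 CPM with RIPC. Each of the 5 IRI libraries lay below each of the 6 sham libraries. The mean was 30.8 ± 12.9 CPM (SD, n = 5) after IRI and 112 ± 21.4 CPM (SD, n = 6) after sham surgery, 3.65-fold lower after IRI. The log2 fold change was -1.85 (SE 0.46), with an unadjusted p of 0.00128 and an adjusted p of 0.0704 by edgeR, just short of the threshold. Without replicate 2 of the IRI group with RIPC, the library with the most Bid after IRI, the adjusted p was 0.0318.

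The proximal tubule markers moved in the same direction as Bid. Their sum was 8622 to 17863 CPM after sham surgery and 2587 to 7804 CPM after IRI, and 5 of the 9 fell (Slc34a1, Miox, Slc22a6, Lrp2 and Slc5a12). The neutrophil marker sum was 1.88 to 29.0 CPM in sham TECs and 31.7 to 108 CPM in IRI TECs, with Ly6g at 0 in all 6 sham libraries and 3 of the 5 IRI libraries. The part of either in the level of Bid was not tested.

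Mcl1 and Bcl2l1 overlapped between sham and IRI libraries of TECs. Mcl1 was 68.8, 44.7 and 43.8 CPM after sham surgery with the control cuff, 83.0, 59.7 and 58.6 CPM with RIPC, 59.8 and 172 CPM after IRI with the control cuff, and 99.0, 24.8 and 144 CPM after IRI with RIPC. The IRI libraries thus spread on both sides of the sham range, with a log2 fold change of 0.78 (SE 0.50, adjusted p = 0.513 by edgeR). Bcl2l1 was 367, 130 and 175 CPM after sham surgery with the control cuff, 129, 162 and 113 CPM with RIPC, 325 and 149 CPM after IRI with the control cuff, and 175, 167 and 485 CPM after IRI with RIPC. Its log2 fold change was 0.56 (SE 0.42, adjusted p = 0.597 by edgeR).

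Bcl2l11 in TECs never exceeded 468 reads. Its libraries held 468, 282 and 37 reads after sham surgery with the control cuff, 0, 91 and 0 with RIPC, 8 and 414 after IRI with the control cuff, and 437, 91 and 78 after IRI with RIPC. The groups overlapped throughout. Bcl2 had 0 to 419 reads in the sham libraries and 2 to 845 in the IRI libraries, with a log2 fold change of 2.64 (SE 1.40, adjusted p = 0.402 by edgeR). Bak1 had at most 103 reads in any TEC library.

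The Bcl2a1 copies together had few reads in most TEC libraries. The sum was 0, 12 and 1 reads after sham surgery with the control cuff, 18, 0 and 15 with RIPC, 0 and 170 after IRI with the control cuff, and 0, 16 and 81 after IRI with RIPC. 2 IRI libraries lay above all the others. The log2 fold change of the sum was 3.32 (SE 2.20, adjusted p = 0.531 by edgeR), which did not pass.

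The members ranked differently in the cell types when their levels were compared per length. In PMNs after sham surgery the Bcl2a1 sum came first at a mean of 230 ± 84.1 TPM, ahead of Bcl2l1 at 46.2 ± 17.6, Mcl1 at 25.7 ± 10.5, Bid at 13.5 ± 20.98 and Bcl2l11 at 9.56 ± 9.58 TPM (SD, n = 5). The Bcl2a1 sum did not overlap with Bcl2l1, whereas each of the following members overlapped with its neighbor. In PMNs after IRI the order was the Bcl2a1 sum at 190 ± 53.8, Mcl1 at 97.4 ± 19.3, Bcl2l11 at 77.7 ± 29.7, Bcl2l1 at 77.4 ± 16.3 and Bid at 6.06 ± 5.15 TPM (SD, n = 5). The first 4 overlapped with their neighbors, and Bcl2l1 and Bid did not.

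In TECs the Bcl2a1 copies stood at the end of the order, or near it. After sham surgery Bcl2l1 led at 38.8 ± 14.8 TPM, with Bid at 25.2 ± 4.63 and Mcl1 at 8.40 ± 1.94 (SD, n = 6), and the Bcl2a1 sum came last at 0.249 ± 0.289. After IRI Bcl2l1 led at 51.0 ± 21.4 TPM, followed by Mcl1 at 12.1 ± 6.00, Bid at 6.64 ± 3.44 and Bcl2l11 at 2.79 ± 2.49 (SD, n = 5). Bcl2l1 and Bid overlapped after sham surgery, while Bid and Mcl1 did not. After IRI Bcl2l1 was separate from Mcl1, and Mcl1, Bid and Bcl2l11 each overlapped with the next.

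**Figure D5:**
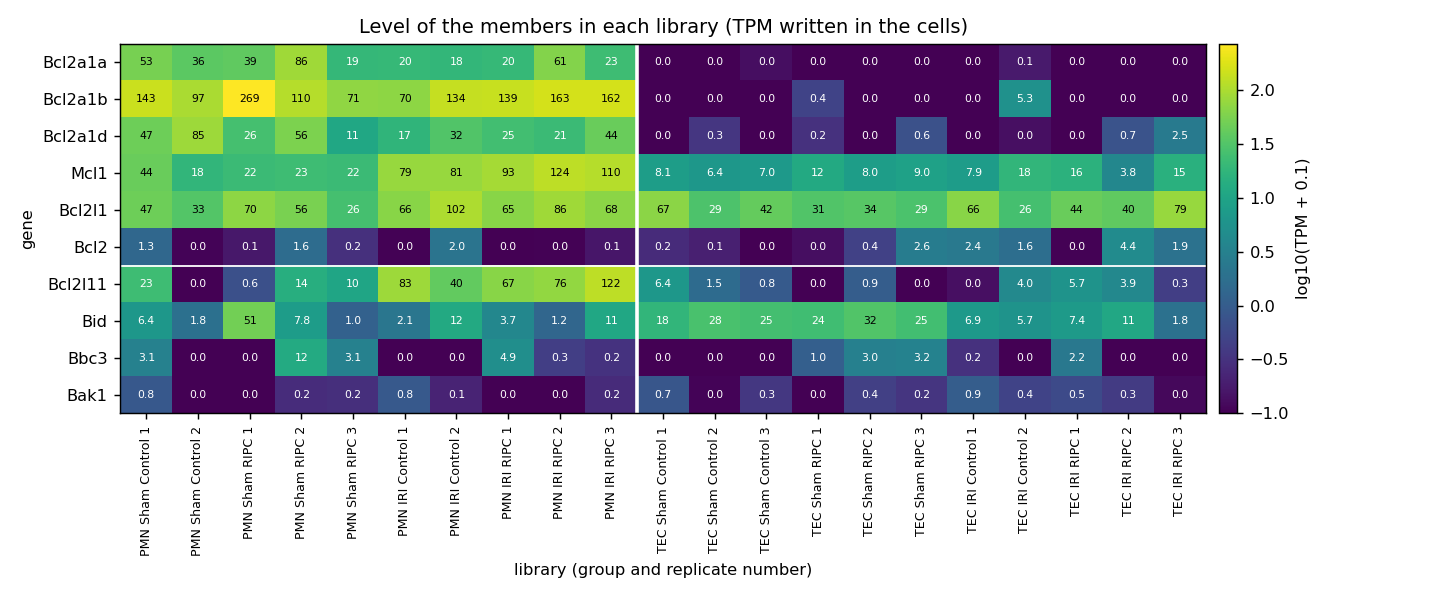
Level of each member in each of the 21 libraries, as color on the scale of log10(TPM + 0.1) with the TPM written in the cells. Bcl2a1b ranged from 70.2 to 269 TPM in PMNs and from 0 to 5.33 TPM in TECs, and Bcl2l11 reached 40.1 to 122 TPM only in the PMN libraries taken after IRI.

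PMNs and TECs were then compared directly in one fit to all 8 groups. After sham surgery the 3 Bcl2a1 copies were higher in PMNs and no other member passed. After IRI the 3 copies and Mcl1 were higher in PMNs. Across all genes 832 of 31756 genes (2.62%) passed after sham surgery and 847 (2.67%) after IRI. The counts of 3 and 4 of the 10 members cannot be read against these shares, because the copies have most of their 50-base windows in common and passed the filter on low counts mainly through the PMN groups. These comparisons share their libraries with those of IRI and sham surgery above.

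The Bcl2a1 sum had a mean of 225 CPM in PMNs and 0.281 CPM in TECs after sham surgery, on the scale of this fit. Its log2 fold change was 9.89 (SE 1.57), adjusted p = 0.00083 by edgeR. After IRI the means were 189 and 2.43 CPM, and the log2 fold change was 6.21 (SE 1.55), adjusted p = 0.032. With either cuff alone the sum did not pass after IRI (edgeR, adjusted p = 0.656 without RIPC and 0.0926 with RIPC). With 1 library at a time left out, it kept its call after IRI in 8 of 10 fits. The adjusted p for Bcl2a1a, Bcl2a1b and Bcl2a1d was 0.000102, 0.000392 and 0.00559 after sham surgery and 0.0012, 0.00587 and 0.0303 after IRI. Without replicate 1 of the TECs taken after IRI with the control cuff, Mcl1 (adjusted p = 0.154) and Bcl2a1d (0.177) no longer passed after IRI. Fitted folds of the single copies depend on the prior count, since Bcl2a1a had at most 2 reads in any TEC library.

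Mcl1 in PMNs and TECs after sham surgery had means of 147 and 56.7 CPM, with a log2 fold change of 1.41 and an adjusted p of 0.122 by edgeR. After IRI the means were 602 and 97.0 CPM, with a log2 fold change of 2.53 (SE 0.52) and an adjusted p of 0.00886. Bcl2l11 after IRI had means of 435 and 8.71 CPM, a ratio of 50.0, but with a log2 fold change of 5.56 (SE 1.72) its adjusted p was 0.103. Bid, Bcl2, Bak1, Bcl2l1 and Bbc3 did not pass in either state.

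Whether IRI acted differently on a member in the 2 cell types was tested as an interaction. No member passed by edgeR's test, and no gene did (0%), with a median of -0.16 over all genes. 1 member had an unadjusted p under 0.05, Bbc3 (adjusted p = 0.501), and DESeq2's Wald test called none. For Mcl1 the difference between the effects was 1.12 (SE 0.68) on the log2 scale, adjusted p = 0.683. For the Bcl2a1 sum it was -3.68, with an unadjusted p of 0.041 and an adjusted p of 0.479 by edgeR. The sum passed under 1 of 10 alternative settings. With 1 library at a time left out, its value ranged from -4.84 to 1.18, so its sign was not stable. The rise of Mcl1 after IRI is thus not shown to be larger in PMNs than in TECs.

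No member passed the test of RIPC against the control cuff in either cell type. In PMNs 0 of 10 members passed after sham surgery, where 1 gene in all did (0.004%), and 0 of 10 after IRI, where no gene did (0%). The interaction of RIPC and surgery called no member and no gene in PMNs (0%). In TECs 0 of 9 members passed after sham surgery (background 0%), after IRI (1 gene, 0.00386%) and in the interaction (0%). In PMNs no member had an unadjusted p under 0.05 in these 3 comparisons by edgeR, against 1150, 680 and 1434 of 25002 genes. In TECs 1 had in each, against 1173, 1126 and 1855 of 25880 genes. DESeq2's Wald test called no member in any of the 6. The median log2 fold change over all genes was 0.21 after sham surgery and 0.15 after IRI in TECs, and 0 in PMNs.

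For Mcl1 in PMNs, the log2 fold change of RIPC over the control cuff was -0.47 (SE 0.39) after sham surgery and 0.49 (SE 0.40) after IRI. The Bcl2a1 sum lay at 0.04 (SE 0.54) and 0.62 (SE 0.55), and Bcl2l1 at 0.32 (SE 0.46) and -0.14 (SE 0.46). Bcl2l11 lay at -1.37 (SE 1.68) and 0.42 (SE 1.72). None of these passed the test (edgeR, adjusted p of 0.802 or more). After IRI, the 3 RIPC libraries stood above both control libraries in Mcl1, at 645 ± 108 CPM (SD, n = 3) and 458 ± 9.75 CPM (SD, n = 2), and in the Bcl2a1 sum, where the nearest libraries were 173.8 and 173.3 CPM. The share of all genes that separate in this way was not counted, so no effect of RIPC is read from it.

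Bbc3 in TECs had reads with RIPC and none with the control cuff after sham surgery. After sham surgery its TEC libraries had 0, 0 and 0 reads with the control cuff and 55, 180 and 156 with RIPC. All 3 RIPC libraries were above all 3 control libraries. Their mean was 5.53 CPM, which was 50.2-fold above a limit of 0.110 CPM (the group mean of the 3-read limit). That limit covers counting error only and not the spread between libraries, so 50.2 is not a lower bound on the fold. How many genes separate the cuffs in this way was not counted, so no effect of RIPC is read from the separation. The unadjusted p was 0.0172 and the adjusted p 0.709 by edgeR, so Bbc3 did not pass. After IRI the TEC libraries had 2 and 0 reads with the control cuff and 87, 0 and 0 with RIPC, which overlapped.

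The wider apoptosis pathway was followed through 40 other genes in 6 lists. 38 of them were tested in PMNs. In the comparison of IRI with sham surgery, 104 of all 25002 genes tested (0.416%) passed. Of the 38, 3 were higher after IRI than after sham surgery and none was lower. These were Pim1, a kinase induced by cytokine receptors that favors survival, Csf2rb, the common beta chain of the receptors for GM-CSF and interleukins, and Tnfrsf1a, the main receptor for TNF. By list, 2 of 12 survival receptors and kinases and 1 of 6 death receptor genes rose. None passed among 9 genes of the apoptosome and caspases, 7 other effectors and BH3-only genes, 3 inhibitors of apoptosis and FLIP, and the 1 other anti-apoptotic gene tested. The median log2 fold change of the 38 genes was 1.21, with 28 of 38 positive, against -0.01 over all genes.

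Pim1 was 74.6 to 143 CPM after sham surgery (median 111) and 435 to 577 CPM after IRI (median 512), with a log2 fold change of 2.28 (SE 0.27) and an adjusted p of 0.0178 by edgeR. Csf2rb was 49.6 to 152 CPM (median 127) and 466 to 797 CPM (median 682), with a log2 fold change of 2.56 (SE 0.37) and an adjusted p of 0.0294. Tnfrsf1a was 13.0 to 142 CPM (median 45.6) and 257 to 497 CPM (median 383), with a log2 fold change of 2.68 (SE 0.43) and an adjusted p of 0.0437. In all 3 genes the IRI libraries stood above every sham library, as with Mcl1. When 1 library at a time was left out, Pim1 kept its call in 6 of 10 fits, Csf2rb in 4 and Tnfrsf1a in 2.

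In 7 of the 38 genes all IRI libraries were above all sham libraries, against the background of 3.43%, and in 1 they were below, against a background of 519 of 25002 genes (2.08%). Beside the 3 genes that rose, these were Apaf1, Birc3, Cflar and Stat3, and the gene that lay below was Cycs, which encodes cytochrome c. These 5 are named after their values were seen, and none passed the test. Birc3, an inhibitor of apoptosis under NF-κB, had a log2 fold change of 2.17 (SE 0.57, adjusted p = 0.203 by edgeR), and Cflar, the gene for the caspase-8 inhibitor FLIP, 1.23 (SE 0.38, adjusted p = 0.305). Cycs had -1.80 (SE 0.48, adjusted p = 0.214). DESeq2's Wald test called 7 of the 38, against 1955 of 25002 genes. In TECs none of the 37 pathway genes tested passed by edgeR, against 363 of 25880 genes (1.4%). Of the 37, 3 had an unadjusted p under 0.05, against 3888 of 25880 genes. DESeq2's Wald test called 2 of the 37, against 2233 of 25880 genes. The median log2 fold change of the 37 was -0.25.

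Between cell types, the pathway genes that passed included receptors of the growth factors that sustain neutrophils. Over all genes, 2.62% passed after sham surgery and 2.67% after IRI. The lists were chosen with earlier results of these data known, so the number that passed is not read as a trait of the pathway. After sham surgery Csf3r, the receptor for G-CSF, was higher in PMNs by a log2 fold change of 6.93, Csf2ra by 7.00, Csf2rb by 5.25 and Pim1 by 5.76, and Pim3 was lower by a log2 fold change of -3.23. After IRI the log2 fold change was 7.61 for Csf3r, 6.81 for Csf2ra, 8.85 for Csf2rb, 4.26 for Csf2rb2 and 5.55 for Pim1, and -2.72 for Cycs. The largest adjusted p among these was 0.0377, that of Csf2rb2 after IRI (edgeR quasi-likelihood test). No pathway gene passed in the 6 comparisons of RIPC or its interaction with surgery by edgeR. The number with an unadjusted p under 0.05 was 3, 0 and 7 of 38 in PMNs (after sham surgery, after IRI and in the interaction) and 1, 2 and 1 of 37 in TECs. Over all genes it was 1150, 680 and 1434 of 25002 in PMNs and 1173, 1126 and 1855 of 25880 in TECs. DESeq2's Wald test called 1, 0 and 1 of the pathway genes in PMNs, against 813, 429 and 669 of 25002 genes. It called none in TECs, against 428, 699 and 597 of 25880 genes.

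The genes whose levels followed those of Mcl1 and of the Bcl2a1 sum most closely over the 10 PMN libraries were found by Pearson's r of log2(CPM + 1). These are descriptions across libraries that share their 4 groups and their mixture of cells. For Mcl1 they were Gm31814 (r = 0.989, at most 6.50 CPM), Pde4b (0.970, 32.9 to 516 CPM), Slc26a11 (0.966, at most 39.6 CPM), Smox (0.966, 43.1 to 803 CPM) and Slc16a3 (0.965, 169 to 1691 CPM). Pde4b encodes a phosphodiesterase that breaks down cyclic AMP, Smox spermine oxidase and Slc16a3 a lactate exporter. For the Bcl2a1 sum they were Cdk8 (0.946), Hecw1 (0.936), Rnase4 (0.926), Mospd3 (0.914) and Gtf2i (0.900), whose median levels lay between 9.40 and 20.3 CPM. The genes that followed Mcl1 included 3 of high level, while those that followed the Bcl2a1 sum were all of low level.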

How the data were processed

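RNA-Seq was done on 21 libraries by poly(A)-primed reverse transcription and single-end 50-base reads. Per the labels, reads were trimmed with Trim Galore 0.6.4 and quantified by the authors with Salmon 1.0.0. The labels name mm10, and the methods the Gencode vM23 transcripts. The deposited files, 2 per library, hold estimated counts, TPM and effective lengths per transcript. What sets the 2 files of a library apart is not given in the sources used here, and each held close to an equal share of the reads (49.96% to 50.1% in the first). For each gene, the estimated counts of its transcripts in both files were added and rounded. Of 140748 transcripts, 884 had no match in the Gencode M21 annotation and were left out, with 0.139% to 0.255% of the reads. Genes of the sex chromosomes and mitochondria were left out, as in the study. TPM was averaged over the files and summed over transcripts.

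Tests were edgeR 4.0.16 quasi-likelihood tests in R 4.3.3 (TMM, filterByExpr, Benjamini-Hochberg over all genes tested), on the 4 groups of a cell type, or on all 8 for PMNs against TECs, and were tested on simulated data. The study's DESeq2 (here 1.42.0, Wald test) was an alternative, as were other scalings, filters, single files, an offset for transcript length, a replicate block and leaving out each library. SEs of fold changes were derived from the F statistic. Of the genes that could be named, members and the Bcl2a1 sum were given throughout, pathway genes where they passed (at most 5 in a direction), and the 5 genes most like Mcl1 and the Bcl2a1 sum. Members, pathway lists, marker lists (neutrophil, macrophage and monocyte, proximal tubule, distal tubule, lymphocyte, endothelium, erythrocyte) and tests were chosen with earlier results of these data known. Limits of 3 reads cover counting error only.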

Additional observations from a re-analysis of the deposited data

How the results depend on the processing

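Every member call was recomputed under each alternative, and no fold change that passed changed its sign. The count of members that passed in PMNs after IRI against sham surgery (1) became 2 without a filter on low counts and 2 with DESeq2's Wald test, both times with Bcl2l11 added, and 0 in one fit to all 8 groups and in the libraries without RIPC alone. With libraries left out singly it ranged from 0 to 2. In TECs (0) it became 1 with a minimum of 10 counts and 1 with the Wald test, and ranged from 0 to 1 with libraries left out. For PMNs against TECs, a minimum of 10 counts, which no Bcl2a1 copy met in TECs, gave 1 after sham surgery and 1 after IRI. The libraries without RIPC alone gave 0 after IRI, and leaving out single libraries gave 2 to 5. Mcl1 in PMNs kept its call with DESeq2's size factors (adjusted p = 0.0203), either file alone (0.0288 and 0.0262) and the length offset (0.0476), and lost it in one fit to all 8 groups (0.105). The cause of these changes was not tested.

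Counts over all genes moved with the filter and the tool. In PMNs after IRI, 104 became 971 without a filter, 444 with a minimum of 10 counts, 57 with the length offset, 1955 with the Wald test, 62 with RIPC and 0 without. In TECs, 363 became 1289 without a filter, 680 with a minimum of 10 counts, 2233 with the Wald test, 37 in one fit, 25 with RIPC and 1 without. With libraries left out singly, the counts were 5 to 393 in PMNs and 92 to 714 in TECs, and a lone library left in a group was assumed to vary like the other groups. For PMNs against TECs, 832 became 2222 without a filter, 4754 with the Wald test, 255 with RIPC and 181 without after sham surgery, and 847 became 1763, 3736, 308 and 71 after IRI. Where 0 or 1 gene passed (RIPC and its interactions), the counts were 18 to 139 without a filter, 429 to 813 (PMNs) and 428 to 699 (TECs) with the Wald test, and at most 3 under the other alternatives with all libraries. For the difference between cell types they were 722, 2395, 123 with a minimum of 10 counts and at most 4.

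Whether replicate numbers pair the libraries is not settled here. Within a cell type, deviations of same-numbered libraries from their group means correlated at -0.0467 to 0.0472 in PMNs and -0.144 to 0.236 in TECs. Different-numbered libraries correlated at -0.0666 to 0.0666 and -0.202 to 0.134. Groups of 2 or 3 libraries are too small to exclude pairing this way. PMN libraries were not set against same-numbered TEC libraries. With the number as a block, 0 members and 23 genes passed in PMNs after IRI, and no other member call changed. Bcl2, Bak1 and Bbc3 had reads near the limit of 3 in many libraries, which limits what can be said of them. Their reads also differed widely at similar depth. Bcl2 had 232 and 1 reads in the sham PMN libraries with the control cuff, which held 23517048 and 23158197 reads. The cause was not tested. Groups of 2 libraries, of which there were 3, limit every comparison of cuffs except that in TECs after sham surgery.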
